A study of Mus musculus with 8 samples.

Results

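The miR-148 and miR-152 family was followed in mouse bone marrow-derived macrophages with and without exposure to LPS. LPS is a component of the outer membrane of Gram-negative bacteria and activates Toll-like receptor signalling. The family has 6 members, the 5p and 3p arms of the hairpins miR-148a, miR-148b and miR-152. They were taken by name from the 1907 mature microRNAs (miRNAs) listed in the small RNA sequencing tables. Each group had 3 libraries. Both groups consisted of wild-type macrophages from mice aged 8 to 12 weeks, grown from bone marrow for 6 days with L929 supernatant as the source of M-CSF. Controls received no LPS, and the treated cells received 100 ng/ml LPS for 3 h. These are primary cells. The labels leave unsaid whether the libraries of a group represent different animals or cultures. The p-values below refer to the spread between libraries, which could be technical. The series also has 2 chromosome conformation samples, which were not analysed here.

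A hairpin precursor is cut into a duplex of a 5p and a 3p strand, of which one is usually loaded into Argonaute and the other is degraded. The loaded strand finds its messenger RNAs mainly through its seed, the bases 2 to 8 from its 5′ end. The 3p arms of miR-148a, miR-148b and miR-152 share a seed and are known for repressing the DNA methyltransferase Dnmt1 and, in Toll-like receptor-stimulated dendritic cells, the kinase Camk2a, where they were reported to dampen cytokine production and antigen presentation. The question here was how the family is made up in macrophages, how its arms are used, and whether 3 h of LPS altered its levels.

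The mature sequences below, from RefSeq with build GRCm38.p6, are shown because the seed defines the family. Capitals mark the seed, and all 6 members matched an entry.
mmu-miR-148a-3p: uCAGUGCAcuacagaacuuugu
mmu-miR-148b-3p: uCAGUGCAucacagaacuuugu
mmu-miR-152-3p: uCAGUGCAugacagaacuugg
mmu-miR-148a-5p: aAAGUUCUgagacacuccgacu
mmu-miR-148b-5p: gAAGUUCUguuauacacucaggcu
mmu-miR-152-5p: uAGGUUCUgugauacacuccgacu

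All 3 of the 3p arms carry the seed CAGUGCA, and no other of the 1679 mature mouse miRNA names in that table has it. Outside the seed the 3p arms are nearly alike. Counting positions from 1 at the 5′ end, miR-148a-3p and miR-148b-3p differ at 2 of 22 positions, as C9U and U10C. From miR-148a-3p to miR-152-3p there are 3 differences over 21 positions (C9U, U10G and U20G), and from miR-148b-3p to miR-152-3p there are 2 (C10G and U20G). The 5p arms, compared from the 5′ end without gaps, differ at 9 of 22 positions between miR-148a and miR-148b, at 10 of 22 between miR-148a and miR-152 and at 5 of 24 between miR-148b and miR-152. Bases after a shift in length count as differences here, and miR-148a-5p and miR-152-5p share a run of 11 bases. The miR-148a and miR-148b 5p arms share the seed AAGUUCU. miR-152-5p has the seed AGGUUCU, which the change A3G separates from the other two.

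The hairpins are shown with both arms in capitals, since the arm ratios below compare these 2 stretches of each precursor.
Mir148a: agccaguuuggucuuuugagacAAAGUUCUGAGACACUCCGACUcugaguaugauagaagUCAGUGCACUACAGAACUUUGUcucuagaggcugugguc
Mir148b: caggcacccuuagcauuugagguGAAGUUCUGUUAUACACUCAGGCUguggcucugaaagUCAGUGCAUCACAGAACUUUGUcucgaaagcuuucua
Mir152: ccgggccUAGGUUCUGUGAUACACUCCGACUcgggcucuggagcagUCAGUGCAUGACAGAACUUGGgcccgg

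The 3 hairpins lie on different chromosomes and in no miRNA cluster, the nearest other annotated miRNA gene being 65.2 kb away or more. In GRCm38.p6, Mir148a is at chr6:51269812-51269910 on the minus strand, within the span of the predicted gene Gm38821. Mir148b is at chr15:103285125-103285221 on the plus strand, within the span of Copz1, and Mir152 is at chr11:96850393-96850465 on the plus strand, within the span of Copz2. Copz1 and Copz2 encode paralogous zeta subunits of the COPI coat of Golgi vesicles, and both genes are on the plus strand as well. The table gives gene spans only, so whether the hairpins are exonic or intronic is not stated here.

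Library totals ranged from 3280688 to 4312555 miRNA counts, and 357 miRNAs had enough counts to be tested. Levels are given as CPM, the library-scaled counts after TMM normalization. Of the blood cell markers, miR-142a-5p had 196331 counts or more in every library and miR-223-3p 6187 or more, whereas miR-142a-3p was listed at 0. The abundant miR-22-3p had 814208 counts or more, which by itself does not identify a cell type. Erythroid markers summed to 0 to 5 counts per library and stromal markers to 1 to 9. Liver, muscle and neuronal markers were listed at 0 in all 6 libraries. As miR-142a-3p was also at 0 beside its abundant 5p arm, a 0 in these counts does not show that a cell type was absent. Epithelial markers summed to 465 to 637 counts, 428 or more of them from miR-141-3p. Lymphocyte markers summed to 1998 to 3021 counts, 1754 or more of them from miR-181c-5p and 235 to 293 from miR-150-5p. The groups overlapped in both sums.

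miR-148a-3p and miR-148b-3p supplied nearly all of the family. The 6 arms together held 0.970%, 0.805% and 0.841% of all miRNA counts in controls and 0.714%, 0.907% and 0.874% after LPS. The highest share was in control replicate 1 and the lowest in LPS replicate 1, and the groups overlapped. The mean was 0.872% ± 0.0871 (SD, n = 3) in controls and 0.832% ± 0.103 after LPS. This gave p = 0.7 in a two-sided exact permutation test, where 0.1 is the smallest p that 3 against 3 libraries allow. Summed by seed over the 1623 listed miRNAs that matched a RefSeq sequence, which held 94.4% of all counts, CAGUGCA ranked 14 of 712 seeds with counts. This rank, the family share and the ranks below describe the listed counts only. How reads that match several loci were counted is not stated, and miR-181a-5p had a mean of 3.37 CPM beside 223 for miR-181a-1-3p. The effect on the ranks was not tested.

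Within the family, miR-148a-3p made up 52.5%, 52.6% and 51.4% of the counts in controls and 47.3%, 51.8% and 55.3% after LPS. The control libraries lay close together and inside the wider range of the LPS libraries. miR-148b-3p made up 42.8%, 41.4% and 42.9% in controls and 45.9%, 42.5% and 39.8% after LPS. miR-152-3p was a small part, between 1.13% and 1.45% over all 6 libraries. The 3 shares had group means of 52.1% and 51.5% (control and LPS), 42.4% and 42.7%, and 1.32% and 1.28% in the same order, and the groups overlapped in each. Two-sided exact permutation tests gave p = 0.8, 1.0 and 1.0 (each 1.0 after Benjamini-Hochberg adjustment over the 3 shares), but with 0.1 as the smallest possible p they could not have passed 0.05.

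The order of the 2 main members was the same in each library, but their gap was not. The count ratio of miR-148a-3p to miR-148b-3p was 1.23, 1.27 and 1.20 in controls and 1.03, 1.22 and 1.39 after LPS, so both the smallest and the largest excess were in LPS libraries. The 5p arms together supplied 3.61% to 5.35% of the family counts, most of it miR-148b-5p (2.48% to 4.28%). Ligation and amplification depend on sequence in small RNA libraries, and the size of that effect on these arms was not tested, so the ratios describe counts and not molecules.

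**Figure D1:**
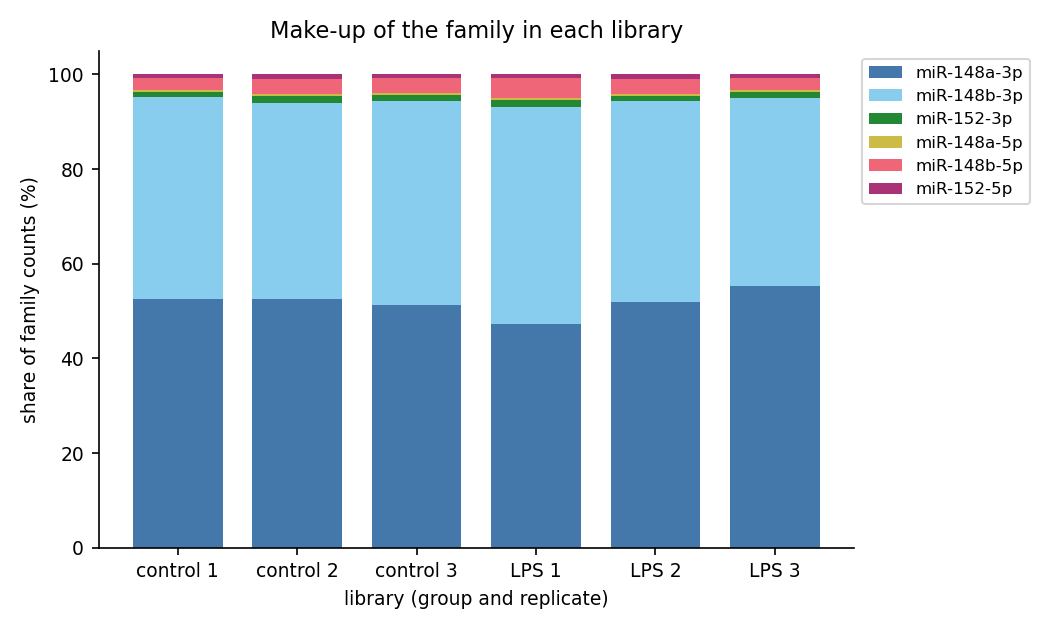
Share of the family counts (%, stacked bars) taken by each of the 6 arms in the 3 control and 3 LPS libraries, without scaling. miR-148a-3p and miR-148b-3p fill most of every bar, and the miR-148a-3p share spans 47.3% to 55.3%, both extremes being LPS libraries.

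The main comparison asked whether 3 h of LPS changed the level of any family arm. None of the 6 arms passed the test (edgeR quasi-likelihood, adjusted p below 0.05 over all 357 tested miRNAs), against a background of 5.04% of all tested miRNAs (3.64% up and 1.4% down). DESeq2 and limma-voom called none of the 6 either, and none had an unadjusted p below 0.05, which 11.8% of all tested miRNAs had. In none of the 6 were the 3 LPS libraries all beyond the 3 controls, a separation seen in 16% of tested miRNAs. The median log2 fold change was -0.02 for the 6 arms and 0.01 for all tested miRNAs. Of the arms, 5 were below 0 and 1 above, and of the 357 tested miRNAs 169 were below and 188 above.

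miR-148a-3p, the most abundant arm and number 26 of all miRNAs by mean level, was at 5213, 4019 and 4202 CPM in controls and at 3511, 4601 and 5036 CPM after LPS. The lowest and the second highest library were both LPS libraries, so the groups overlapped widely. Means were 4478 ± 643 and 4383 ± 786 CPM (SD, n = 3). The log2 fold change was -0.03 (SE 0.15, edgeR adjusted p = 0.994). The 95% interval of the fold change ran from 0.775 to 1.24. The coefficient of variation was 14.4% in controls, and counting error alone would give 0.733%.

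miR-148b-3p, which carries the same seed and ranked 30, was at 4251, 3161 and 3512 CPM in controls and at 3404, 3774 and 3620 CPM after LPS. All 3 LPS libraries lay inside the control range. The log2 fold change was -0.02 (SE 0.12, edgeR adjusted p = 0.998), with a 95% interval of the fold change from 0.817 to 1.20. The coefficient of variation was 15.3% in controls and 5.16% after LPS.

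miR-152-3p, the third carrier of the seed, ranked 131 and was at 112.1, 110.7 and 114.2 CPM in controls and at 107.7, 102.0 and 111.9 CPM after LPS. All 3 LPS libraries were below the control mean of 112.3 CPM, but LPS replicate 3 was above control replicate 2, so the groups overlapped. The log2 fold change was -0.07 (SE 0.12, edgeR adjusted p = 0.943), with a 95% interval of the fold change from 0.793 to 1.15. Its counts of 340 to 472 per library varied by 1.59% in controls and 4.65% after LPS in CPM, no more than the 4.63% and 5.01% that counting error alone gives.

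**Figure D2:**
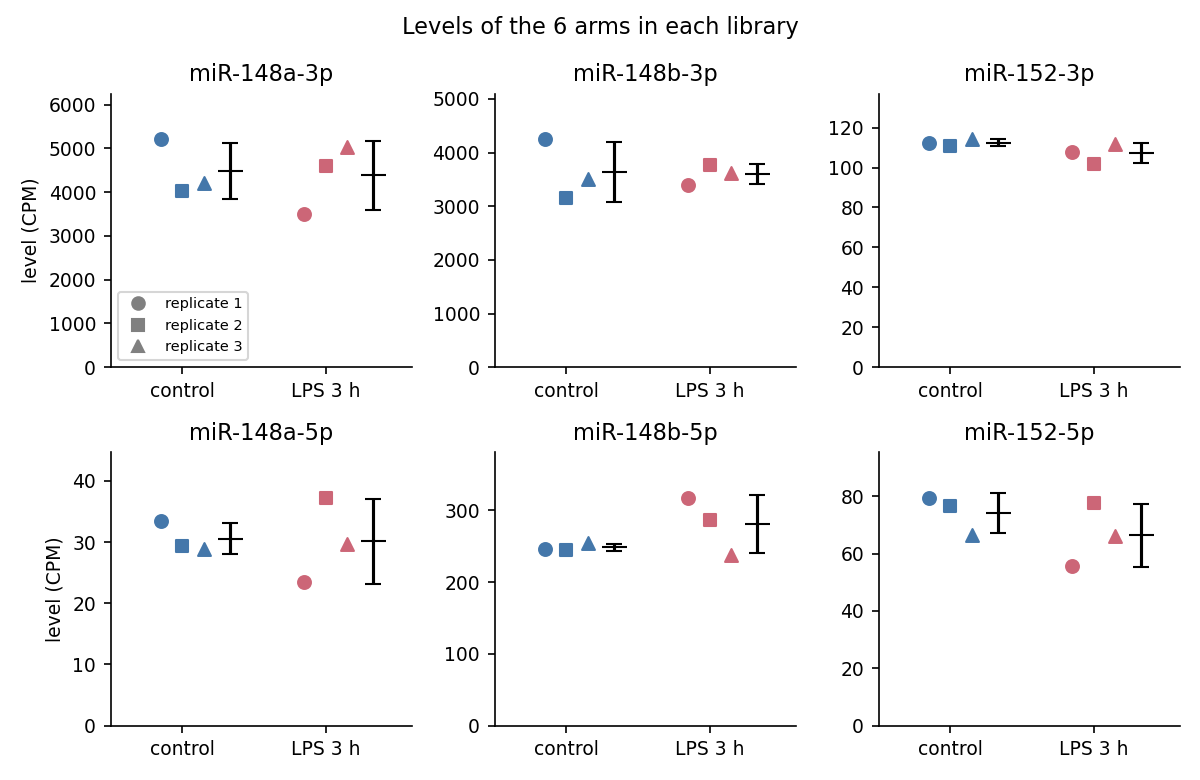
Level of each arm (CPM, linear axes from 0, a separate scale per panel) in the 3 control (blue) and 3 LPS (red) libraries, with group mean ± SD in black. In each of the 6 panels the groups overlap, and miR-148a-3p spans 3511 to 5213 CPM over the 6 libraries.

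The 5p arms, usually described as the passenger strands of these hairpins, were at lower levels. miR-148b-5p, at rank 85, was the only arm with a log2 fold change above 0. It was at 246.0, 244.2 and 254.4 CPM in controls and at 317.6, 286.3 and 238.1 CPM after LPS, so 2 LPS libraries were above all controls and 1 was below them all. The log2 fold change was 0.18 (SE 0.13, edgeR adjusted p = 0.805), with a 95% interval of the fold change from 0.926 to 1.38.

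miR-152-5p, at rank 150, was at 79.5, 76.5 and 66.4 CPM in controls and at 55.7, 77.7 and 66.0 CPM after LPS. LPS replicate 2 was near the top of the control range, whereas LPS replicates 1 and 3 were below all 3 controls, replicate 3 only just. The log2 fold change was -0.15 (SE 0.16, edgeR adjusted p = 0.943), with a 95% interval of the fold change from 0.700 to 1.15. miR-148a-5p, the scarcest arm at rank 192, was at 33.5, 29.4 and 28.9 CPM in controls and at 23.4, 37.3 and 29.7 CPM after LPS, so the LPS libraries held both extremes. Its log2 fold change was -0.02 (SE 0.20, edgeR adjusted p = 0.998) and rested on 74 to 152 counts per library, with a 95% interval of the fold change from 0.728 to 1.35.

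The intervals show what the design could resolve. The widest of the 3p intervals, that of miR-148a-3p, set the outer limits, so a rise above 1.24-fold or a fall below 0.775 of the control level lay outside the 95% intervals of all 3 of the 3p arms. The intervals of miR-148b-3p and miR-152-3p were narrower. LPS replicate 1, the library with the fewest counts, was the lowest of all 6 for miR-148a-3p, miR-148a-5p and miR-152-5p and the highest for miR-148b-5p, and without it the log2 fold changes of miR-148a-3p, miR-148a-5p, miR-152-5p and miR-148b-5p were 0.07, 0.10, -0.08 and 0.05.

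**Figure D3:**
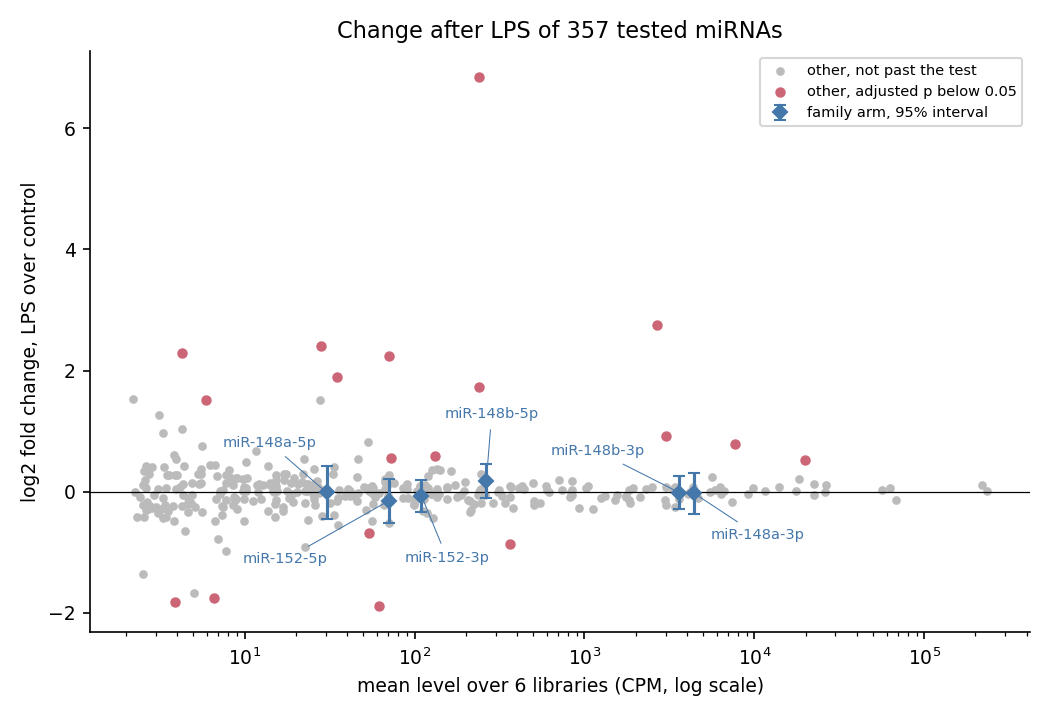
Log2 fold change (LPS over control) against mean level (CPM, log scale) for the 357 tested miRNAs, with the 6 family arms in blue and their 95% intervals. All 6 intervals cross 0, and the arms lie between -0.15 and 0.18, among the grey points that did not pass the test.

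Arm use differed widely between the 3 hairpins in control and LPS libraries alike. The 5p arm took 0.638%, 0.726% and 0.682% of the miR-148a counts in controls and 0.663%, 0.803% and 0.586% after LPS. For miR-148b it took 5.47%, 7.17% and 6.75% in controls and 8.53%, 7.05% and 6.17% after LPS. For miR-152 it took 41.5%, 40.9% and 36.8% in controls and 34.1%, 43.2% and 37.1% after LPS. The ranges of the 3 hairpins over the 6 libraries did not overlap one another. Since the 3p arms are nearly alike, 3p reads assigned to the wrong member would alter these shares, which was not tested.

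Set beside the 100 hairpins with both arms tested, in which the less abundant arm took a median of 6.73% of control counts, miR-152 ranked 11 from the top with 39.7% ± 2.56 (SD, n = 3). miR-148b was near the median at 6.46% ± 0.886, and miR-148a ranked 82 at 0.682% ± 0.0437. In counts, miR-152-5p (176 to 335 per library) was below miR-148b-5p (938 to 1168) in every library.

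The 5p shares of control and LPS libraries overlapped in each of the 3 hairpins. The log-CPM of the 5p arm minus that of the 3p arm differed between LPS and control by -0.0044 (SE 0.20) for miR-148a, 0.17 (SE 0.19) for miR-148b and -0.10 (SE 0.20) for miR-152. None of the 3 passed (limma adjusted p = 0.983, 0.787 and 0.860 over 100 hairpins), where 12% of all hairpins did, and none had an unadjusted p below 0.05, which 17% of hairpins had. Their 95% intervals on the log2 scale were -0.43 to 0.42, -0.22 to 0.57 and -0.51 to 0.32. Two-sided exact permutation tests on the 5p shares gave p = 1.0, 0.5 and 0.7 (each 1.0 after Benjamini-Hochberg adjustment over the 3 hairpins), again with no p below 0.1 possible.

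**Figure D4:**
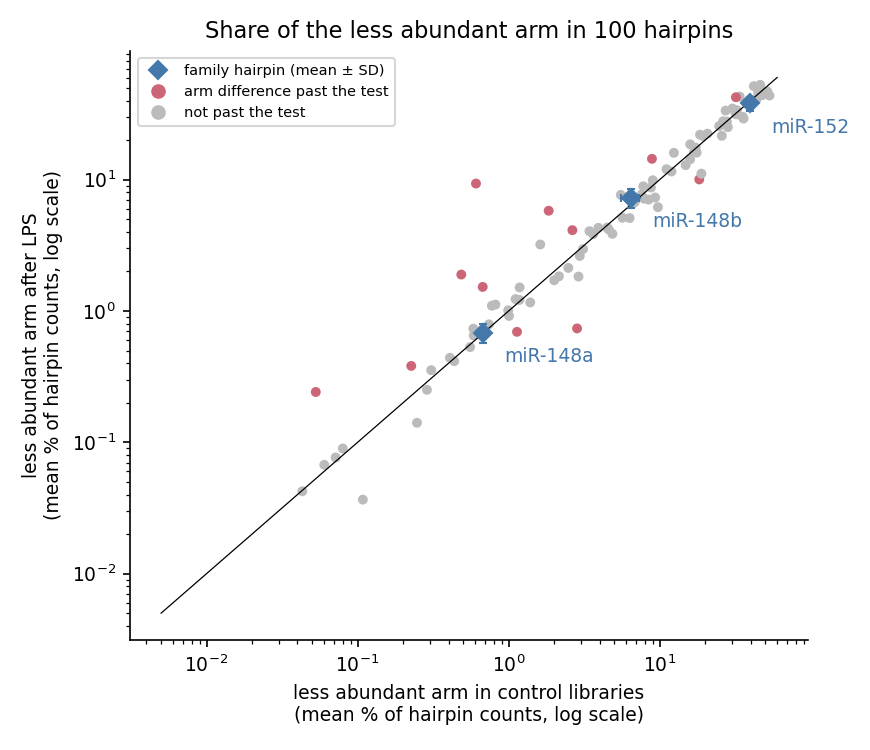
Mean share of hairpin counts taken by the less abundant arm (%, log axes) in control libraries (horizontal) and LPS libraries (vertical) for 100 hairpins. The family hairpins (blue, mean ± SD, n = 3 per group) lie near the line of equal shares at about 0.682%, 6.46% and 39.7% in controls, and red points mark the 12 hairpins past the test.

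Levels of the family arms were also compared across the 6 libraries. Pearson's r of log-CPM was 0.76 between miR-148a-3p and miR-148b-3p, 0.74 between the arms of miR-148a, -0.14 between those of miR-148b and -0.11 between those of miR-152. miR-152-3p had r = 0.15 with miR-148a-3p and -0.04 with miR-148b-3p. These values describe 6 libraries in 2 groups that share their scaling, and no test was made of them.

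Among 254 other tested miRNAs with a mean of at least 10 CPM, those with the highest r to miR-148a-3p were miR-340-5p (0.95), miR-7068-3p (0.94) and miR-183-5p (0.91). For miR-148b-3p they were miR-10a-5p (0.96), miR-1843b-5p (0.93) and miR-151-3p (0.90). For miR-152-3p they were miR-130b-3p (0.97), miR-339-3p (0.95) and miR-186-5p (0.92). With 254 candidates and 6 libraries, high values of r are easily reached. The 3p arms had no neighbour in common, but with only 3 kept for each arm this says little about their likeness.

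The miR-130 and miR-301 family has a seed that overlaps that of the 3p arms at an offset of 1 base, so that the run AGUGCA of 6 bases is common to both. The sequences are given to show the offset, with the seed in capitals.
mmu-miR-130b-3p: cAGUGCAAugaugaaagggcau
mmu-miR-301a-3p: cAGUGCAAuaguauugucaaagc

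None of its 4 tested members (miR-130a-3p, miR-130b-3p, miR-301a-3p and miR-301b-3p) passed edgeR, DESeq2 or limma-voom (5.04% of all tested miRNAs passed edgeR), and none had an unadjusted p below 0.05 (11.8% of all). miR-301a-3p was the most abundant, at 3270 ± 175 CPM in controls and 3353 ± 554 after LPS (SD, n = 3; log2 fold change 0.04, SE 0.13), a value that turned negative with upper-quartile or total-count scaling. In miR-130b-3p, at 1590 ± 37.0 and 1448 ± 95.7 CPM, all 3 LPS libraries were below the 3 controls, a separation in either direction that 16% of tested miRNAs showed, and the log2 fold change of -0.14 (SE 0.10) did not pass (edgeR adjusted p = 0.815). The log2 fold changes of miR-130a-3p and miR-301b-3p were 0.12 (SE 0.25) and 0.02 (SE 0.16).

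The same libraries held miRNAs of Toll-like receptor signalling that did change. Of 27 such miRNAs outside the family, 24 were tested, 4 rose, none fell and 20 did not pass, with a median log2 fold change of 0.08 (0.01 over all tested miRNAs, of which 3.64% rose). The rises were both arms of miR-155, which targets inhibitors of inflammatory signalling, miR-146a-3p, the partner strand of a miRNA that represses Irak1 and Traf6, and miR-21a-3p. Their log2 fold changes were 2.75 (SE 0.38) for miR-155-5p, 6.85 (SE 0.27) for miR-155-3p, 2.41 (SE 0.26) for miR-146a-3p and 0.78 (SE 0.18) for miR-21a-3p. The last call ended when control replicate 2, control replicate 3, LPS replicate 1 or LPS replicate 3 was left out (edgeR adjusted p up to 0.0863) and with upper-quartile scaling (0.078). The more abundant arms of miR-146a and miR-21a, also on the list, did not pass. Their log2 fold changes were 0.21 (SE 0.12, edgeR adjusted p = 0.664) for miR-146a-5p and 0.11 (SE 0.14, edgeR adjusted p = 0.943) for miR-21a-5p. The list was chosen with earlier results of these data known. It has both arms of some hairpins but 1 arm of others, so its share of rises depends on that choice. Of partner arms off the list, miR-125a-3p, let-7e-3p and miR-221-5p rose (log2 fold changes 2.24, 1.89 and 0.92) and miR-223-5p fell (-0.86). How reads that match several loci were counted is not stated. On the list, miR-125b-5p had a mean of 58.7 CPM beside 837 for its partner arm miR-125b-2-3p. The effect of this on the calls was not tested, so a member that did not pass may still have changed. Whether the family differs from this list in its response was not tested.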

How the data were processed

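Per the labels' protocols, total RNA (Tri Reagent) was made into TruSeq small RNA libraries. The authors deposited unscaled read counts for each mature miRNA. Novoalign, SAMtools 0.1.19, mm10 and GRCm38.p1 are named in the submitters' processing notes. Neither the counting tool nor the mismatches allowed is given in the sources used here, so reads of the near-identical 3p arms could have been assigned to the wrong member.

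Counts were tested with edgeR 4.0.16 (R 4.3.3; quasi-likelihood F test, TMM factors, filterByExpr with a minimum count of 10), with Benjamini-Hochberg adjustment over 357 miRNAs that held 99.97% of counts. All 6 family arms passed this filter. Arm differences were tested with limma 3.58.1 on log-CPM (prior count 2) with a variance trend over 100 hairpins, and shares by exact permutation (scipy 1.17.1). The scripts were tested on simulated data with planted changes far larger than the limits of the intervals above. The simulation therefore does not show how well small changes would be found. Libraries of a group differed by more than counting noise (a chi-square of at least 62.3 times its degrees of freedom). Reads carry no molecular identifiers, so counting errors cover sampling only. Alternatives were DESeq2 1.42.0, limma-voom, other scalings and filters, a replicate block and leaving out each library.

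The named miRNAs are the 6 arms, the 3 most similar miRNAs to each 3p arm, the miR-130/miR-301 members, list members that passed and markers. Members and lists were chosen with earlier results of these data known.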

Additional observations from a re-analysis of the deposited data

How the results depend on the processing

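No family arm passed in any of 14 alternative fits, all drawn from the same 6 libraries. They gave 84 estimates for the 6 arms, of which 9 had the opposite sign. With no filter the log2 fold changes of miR-148a-5p and miR-148b-3p were 0.0092 and 0.0055. Leaving out 1 library each gave log2 fold changes of -0.095 to 0.0704 for miR-148a-3p, -0.19 to 0.10 for miR-148a-5p and -0.0979 to 0.0664 for miR-148b-3p, 0.0475 to 0.331 for miR-148b-5p, -0.276 to -0.0779 for miR-152-5p and -0.114 to -0.0218 for miR-152-3p, and arm differences of -0.12 to 0.10 for miR-148a, 0.0409 to 0.293 for miR-148b and -0.25 to 0.0262 for miR-152. LPS minus control then ranged, in percentage points, from -0.078 to 0.0184 for the family share, -2.58 to 1.43, -1.23 to 1.82 and -0.146 to 0.0159 for the shares of miR-148a-3p, miR-148b-3p and miR-152-3p, and -0.0574 to 0.0512 and -4.12 to 0.453 for the 5p shares of miR-148a and miR-152. Outside the family the ranges were -0.0862 to 0.36 for miR-130a-3p, -0.0187 to 0.13 for miR-301a-3p and -0.12 to 0.088 for miR-301b-3p. Upper-quartile and total-count scaling gave -0.01999 and -0.0181 for miR-301a-3p and -0.0446 and -0.0372 for miR-301b-3p. The cause of these shifts was not tested.

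Of all miRNAs, 18 passed, 13 up and 5 down. Without 1 library 11 to 18 passed (9 to 13 up, 2 to 6 down), the fewest without LPS replicate 3. Upper-quartile scaling called 8 up and 5 down, no filter 8 down and a minimum count of 50 called 3 down. Without the variance trend 7 hairpins passed in place of 12, and 8 to 14 did without 1 library. The replicate block called 17 miRNAs and no family arm, with a log2 fold change of -0.04 for miR-148a-3p. Deviations of same-numbered libraries correlated at 0.02, 0.14 and -0.04. Control replicate 1 correlated best with LPS replicate 3, whereas the highest value of all was that of the libraries numbered 2. With 3 libraries per group these correlations cannot decide whether same-numbered libraries share animals, which the labels do not say. The main tests were therefore unpaired, and a pairing remains possible. Depth limits miR-148a-5p most, with 74 counts in its lowest library.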
